A study of Mus musculus with 4 samples.

Results

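The α subunits of heterotrimeric G proteins were examined in Sca-1 cells of the mouse heart. The members are 10 genes, Gnaq, Gna11, Gna14, Gna15, Gna12, Gna13, Gnas, Gnai1, Gnai2 and Gnai3, and every probe set annotated to one of them was taken, which gave 37 of the 45037 probe sets in the expression table. At least 2 of the 4 arrays had to read a probe set at 50 or above for it to be tested, which held for 27 of the 37, in 8 genes, and for 20680 probe sets in all. Annotated probe sets are named by gene and letter, in the order of their identifiers, and the plots give the identifier of each one plotted. A further 2 probe sets that carry no gene in the array annotation are named for Gnaq by the study's supplementary gene table and are given beside the others as Gnaq-h and Gnaq-i.

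Cyc cells came from double-transgenic αMHC-CyclinT1/Gαq overexpressing mice with heart failure, and Wt cells from healthy wildtype littermates. All mice were FVB, of either sex and 6 weeks old. The αMHC promoter drives both transgenes in cardiomyocytes, so Sca-1 cells are not the cells in which they are designed to act. Sca-1 cells were taken from the hearts by magnetic cell sorting, and cells of several hearts were pooled. RNA was extracted without culture in 2 independent experiments and hybridised to Affymetrix arrays of the mouse genome. Pools were assigned to experiments by the number in their labels, which gave 1 Cyc pool and 1 Wt pool for each.

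G protein α subunits bind guanine nucleotides and pass the signal of seven-transmembrane receptors to effectors inside the cell, together with β and γ subunits. They fall into classes by effector: the Gq class activates phospholipase Cβ, the G12 class acts through guanine nucleotide exchange factors, Gs stimulates adenylyl cyclase and the Gi class inhibits it. In cardiomyocytes, Gαq carries the signals of angiotensin, endothelin and α1-adrenergic receptors, and its overexpression in the mouse heart is a classical model of hypertrophy and failure.

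The median intensity over the tested probe sets was between 197.6 and 280.5 in the Cyc pools and between 219.4 and 260.7 in the Wt pools. Over these probe sets the median log2 difference, Cyc minus Wt, was -0.10 in experiment 1, 0.06 in experiment 2 and -0.02 over both. The spiked poly-A controls, which are added to the RNA before labelling, separated the experiments: their median was 205.6 in the Cyc pool and 182.8 in the Wt pool of experiment 1, and 0.1 in the Cyc pool and 1.2 in the Wt pool of experiment 2. Ly6a, the gene of Sca-1, was read at 13368.3 and 11587.5 in the Cyc pools, against 14050.6 and 10561.6 in the Wt pools, so the sorted marker was present in all 4 pools. Its probe set is named for Ly6a by the study's supplementary gene table and not by the array annotation. Airway markers, which a heart sample should lack, summed to 781.8 and 30759.9 in the Cyc pools and to 6253.7 and 482.6 in the Wt pools, and were thus highest in the Cyc pool of experiment 2 and next highest in the Wt pool of experiment 1. Their part in the results was not tested. In pooled cells, fewer cells of a type and less RNA per cell cannot be told apart.

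Of the 27 tested probe sets of α subunits, 1 was higher in Cyc cells, at a fold change of 2 or more and an unadjusted p under 0.05 by limma, and 0 were lower. Over all tested probe sets these thresholds were passed by 0.735% in the higher and by 0.116% in the lower direction. The one probe set was Gnaq-f, and it was also the only member with an unadjusted p under 0.05, a limit that 1.99% of all tested probe sets passed. With the experiment as a block it was again the only member to pass, beside 0.924% of all tested probe sets in the higher and 0.227% in the lower direction, and 2 of the 27 had an unadjusted p under 0.05, beside 6.98%. The remaining 26 had log2 fold changes between -0.67 and 0.42, and 98.7% of all tested probe sets also lay within 1 in either direction.

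**Figure D1:**
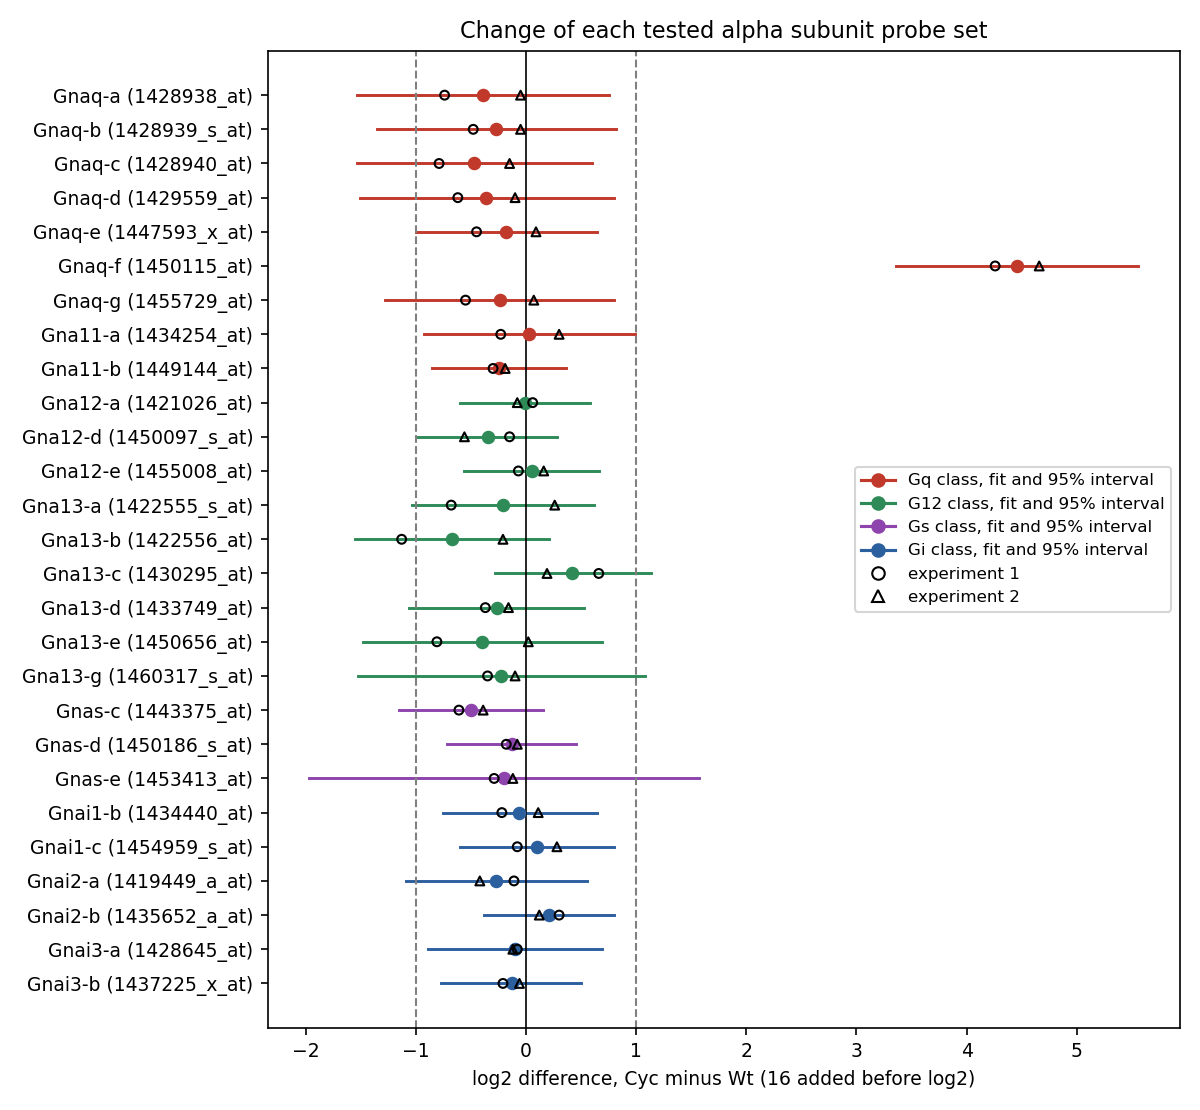
Log2 fold change, Cyc minus Wt, of each of the 27 tested α subunit probe sets (vertical axis, grouped by gene) on the horizontal axis, with the fit as filled points, 95% confidence intervals of limma as bars and the differences within experiment 1 and experiment 2 as open circles and open triangles. The Gnaq probe set Gnaq-f lies at 4.46, and the filled points of the others lie between -0.67 and 0.42, inside the dashed lines at a 2-fold change.

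Gnaq encodes Gαq, one of both transgene products of the Cyc mouse. Its probe set Gnaq-f was read at 723.6 and 492.3 in the Cyc pools, against 22.7 and 4.1 in the Wt pools. Both Cyc pools thus lay far above both Wt pools, and both Wt pools lay under 50, which was treated as near background. With 50 in place of the Wt values the signal was at least 11.9-fold higher in Cyc cells, at least 14.5-fold in experiment 1 and at least 9.85-fold in experiment 2. The log2 fold change was 4.46 with a standard error of 0.42 (limma, unadjusted p = 0.000186, adjusted p = 1, n = 2 pools each), and its difference was 4.26 in experiment 1 and 4.66 in experiment 2. With a block for the experiment, limma gave an adjusted p of 0.0375. No other of the 20680 probe sets had one under 0.05 there, so this was 0.00484% of them. The blocked fit left 1 residual degree of freedom, against 4.44 for the variance prior drawn from all tested probe sets. Its p-value therefore rests mostly on that prior. The unblocked fit left 2 residual degrees of freedom, against 2.68 for its prior. Gnaq-f passed the filter on dim probe sets through its Cyc pools alone, so fold change and p-value depend on the value added before log2. With 1 in place of 16 the unblocked log2 fold change was 5.77 (limma, unadjusted p = 0.00152). With 50 it was 3.37 (limma, unadjusted p = 7.19e-05).

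The other 6 annotated Gnaq probe sets did not pass the thresholds, and in all 6 the Cyc and Wt pools overlapped. Gnaq-a had 295.1 and 642.7 in Cyc against 504.0 and 664.9 in Wt. Gnaq-b had 696.1 and 1353.4 in Cyc against 979.9 and 1398.3 in Wt. The Cyc pool of experiment 1 was the lowest of the 4 in both, and the same holds for the following 4. Gnaq-c had 127.1 and 268.4 in Cyc against 232.1 and 300.0 in Wt, and Gnaq-d had 759.8 and 1580.0 in Cyc against 1173.2 and 1689.9 in Wt. Gnaq-e had 251.7 and 408.4 in Cyc against 350.1 and 382.4 in Wt, and Gnaq-g had 722.6 and 1410.0 in Cyc against 1063.2 and 1344.4 in Wt. All 6 were read well above 50 in every pool, so Gnaq transcript was detected in Wt cells by these probe sets. Their log2 fold changes were between -0.47 (standard error 0.41) and -0.18 (standard error 0.31). Each 95% interval of the unblocked fit included 0, with a lowest bound of -1.54 and a highest of 0.82. With the experiment as a block their standard errors were smaller, between 0.21 and 0.24. None of the 6 had an unadjusted p under 0.05 by limma there. In experiment 1 all 6 were lower in Cyc, with differences between -0.79 and -0.45, and in experiment 2 the differences lay between -0.15 and 0.09. Without the Cyc pool of experiment 1 the sign turned in all 6, to values between 0.02 and 0.24.

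The 2 probe sets named for Gnaq by the study alone did not pass either. Gnaq-h had 75.5 and 352.6 in Cyc against 115.4 and 365.3 in Wt, a log2 fold change of -0.29 with a standard error of 0.86. With the experiment as a block this standard error was 0.21. Gnaq-i had 27.0 and 74.3 in Cyc against 68.6 and 59.0 in Wt, a log2 fold change of -0.35 with a standard error of 0.42, or 0.33 with the block. The pools overlapped in both.

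**Figure D2:**
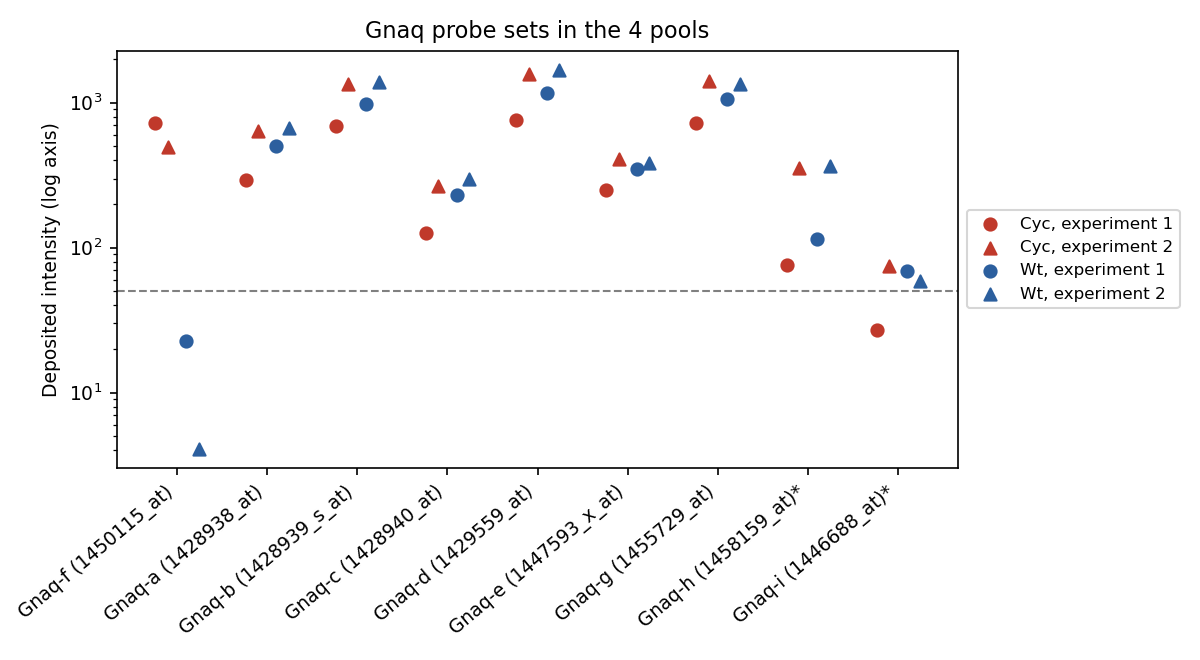
Deposited intensity (vertical axis, log scale) of each Gnaq probe set (horizontal axis) in the 2 Cyc and the 2 Wt pools, 1 point per pool (experiment 1 as circles, experiment 2 as triangles), with a dashed line at 50 and an asterisk at probe sets named for Gnaq by the study alone. Probe set Gnaq-f lies at 723.6 and 492.3 in Cyc and below the dashed line in Wt, whereas the pools overlap at every other probe set.

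The probe sets of this gene thus moved unequally within the same pools. The log2 value of Gnaq-f minus the mean of the other 6 was 0.85 and -0.64 in the Cyc pools and -4.02 and -5.33 in the Wt pools. The difference between Cyc and Wt was 4.86 in experiment 1, 4.69 in experiment 2 and 4.78 over both. The mean of the other 6 itself differed by -0.61 in experiment 1 and by -0.03 in experiment 2. These values are a description, as earlier results had singled this probe set out. The study's supplementary gene table likewise lists a significant change at this Gnaq probe set alone. Its authors found no difference at the rest and assumed that reading for the transcript as a whole. In the annotation of the array, Gnaq-f cites the RefSeq mRNA of Gnaq and the other 6 cite other GenBank records. The positions of the probes within the transcripts were not analysed here, and a signal from the endogenous gene and one from a transgene cannot be told apart by gene name alone.

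Gnaq transcript can stem from the gene's own promoter or, in Cyc hearts, from the αMHC promoter of the transgene, and the proximal promoters of Gnaq, of Myh6, the gene of αMHC, and of the other Gq class genes, Gna11, Gna14 and Gna15, are therefore shown. In the RefSeq annotation Gnaq and Gna14 are neighbours on chromosome 19 and Gna11 and Gna15 are neighbours on chromosome 10, with 0 protein-coding genes between them in either pair. Of the 10 member genes 9 matched the RefSeq promoter table, and Myh6 was added. The mouse sequence of Myh6 is shown, and the fragment used in the transgenes was not analysed here. The 250 bases before the start site of each gene are given 5′ to 3′ on the coding strand of GRCm38.p6, in lower case with every CG dinucleotide in capitals:
Gnaq: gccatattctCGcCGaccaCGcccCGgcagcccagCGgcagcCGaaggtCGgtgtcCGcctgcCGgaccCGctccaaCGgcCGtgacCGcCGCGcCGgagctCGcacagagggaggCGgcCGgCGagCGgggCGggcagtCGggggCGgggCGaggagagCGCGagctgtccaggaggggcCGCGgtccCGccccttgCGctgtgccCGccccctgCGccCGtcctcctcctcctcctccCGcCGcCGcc
Gna11: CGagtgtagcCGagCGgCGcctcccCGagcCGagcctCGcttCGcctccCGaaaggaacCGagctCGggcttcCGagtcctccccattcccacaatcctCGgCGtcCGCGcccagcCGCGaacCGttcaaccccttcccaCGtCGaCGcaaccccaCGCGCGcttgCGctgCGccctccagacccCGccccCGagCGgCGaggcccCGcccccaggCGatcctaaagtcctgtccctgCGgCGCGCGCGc
Gna14: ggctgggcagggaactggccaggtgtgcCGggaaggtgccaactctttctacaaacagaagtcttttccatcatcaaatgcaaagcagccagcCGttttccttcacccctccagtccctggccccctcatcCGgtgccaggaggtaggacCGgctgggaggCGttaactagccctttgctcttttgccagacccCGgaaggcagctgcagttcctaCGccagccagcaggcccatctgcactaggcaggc
Gna15: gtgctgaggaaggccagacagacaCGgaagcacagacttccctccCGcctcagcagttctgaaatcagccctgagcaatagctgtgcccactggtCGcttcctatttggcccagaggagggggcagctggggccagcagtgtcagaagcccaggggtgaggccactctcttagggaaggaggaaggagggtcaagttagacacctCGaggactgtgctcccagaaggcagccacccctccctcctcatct
Myh6: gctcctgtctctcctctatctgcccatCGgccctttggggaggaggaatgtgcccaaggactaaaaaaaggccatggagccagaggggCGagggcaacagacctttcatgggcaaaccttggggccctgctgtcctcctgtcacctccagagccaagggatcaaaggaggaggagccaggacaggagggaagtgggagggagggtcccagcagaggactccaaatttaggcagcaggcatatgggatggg
The Gnaq promoter (chr19:16132434-16132683, plus strand) held 37 CG dinucleotides, more than 97.8% of the 32851 promoters in the table, and that of Gna11 (chr10:81545163-81545412, minus strand) held 38, more than 98.1%. The promoters of their neighbours held fewer: Gna14 (chr19:16435417-16435666, plus strand) had 7, more than 53.7% of promoters, and Gna15 (chr10:81524226-81524475, minus strand) had 4, more than 37.8%. Myh6 (chr14:54966608-54966857, minus strand) had 2, more than 18.8%, while the median promoter held 6. CG reads the same on both strands. Among the 4 Gq class genes, Gnaq and Gna11 were read above 50 in all pools by most of their probe sets and Gna14 and Gna15 in none, and no test of this against the CG counts was made.

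Gna11, the closest relative of Gnaq and likewise an activator of phospholipase Cβ, had 2 tested probe sets. Gna11-a had 980.2 and 1763.1 in Cyc against 1156.2 and 1431.8 in Wt, and the pools overlapped. Gna11-b had 1576.4 and 1799.3 in Cyc against 1951.2 and 2052.9 in Wt, and both Cyc pools lay below both Wt pools. Their log2 fold changes were 0.03 (95% interval from -0.93 to 0.99) and -0.25 (from -0.85 to 0.36). Neither passed the thresholds.

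Gna14 and Gna15 were near background in every pool. The 3 Gna14 probe sets did not exceed 24.5, which was the Cyc pool of experiment 1 at Gna14-c, with 20.5 in Cyc in experiment 2, against 5.6 and 13.3 in Wt. Gna14-a had 3.3 and 21.3 in Cyc against 10.8 and 13.5 in Wt, and Gna14-b had 2.6 and 15.1 in Cyc against 7.6 and 1.7 in Wt. Gna15, a subunit known from blood cells, had 3.1 and 7.6 in Cyc against -6.1 and 7.4 in Wt at its only probe set, Gna15-a. No fold change is given for these genes, since both groups lay under 50. Leukocyte markers summed to 861.4 and 2123.8 in the Cyc pools and to 758.8 and 659.7 in the Wt pools. Of 7 tested at their brightest probe sets 1, Cd52, was higher in Cyc cells, beside 0.735% of all tested probe sets.

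Gna12 and Gna13 make up the G12 class, which acts through guanine nucleotide exchange factors. Of 12 probe sets 9 were tested, and 0 of these passed the thresholds in either direction by limma, with 0 at an unadjusted p under 0.05. Gna12 was read at 455.5 and 537.9 in Cyc against 478.0 and 479.8 in Wt by Gna12-e, with a log2 fold change of 0.05 (95% interval from -0.56 to 0.66). The Wt pools of this probe set were nearly equal and lay between the Cyc pools. Gna12-a was dim, with 60.4 and 53.6 in Cyc against 57.3 and 57.8 in Wt. Gna12-d had 77.0 and 64.7 in Cyc against 86.9 and 102.9 in Wt, so both Cyc pools lay below both Wt pools, with a log2 fold change of -0.35 and an interval from -0.98 to 0.28. The remaining Gna12 probe sets, Gna12-b and Gna12-c, did not exceed 12.2.

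The 7 Gna13 probe sets did not point one way. Gna13-b had 234.9 and 268.0 in Cyc against 534.6 and 312.0 in Wt, and both Cyc pools lay below both Wt pools. Its log2 fold change was -0.67 with a standard error of 0.33 (limma, unadjusted p = 0.105), the lowest among the tested members, and the difference was -1.13 in experiment 1 and -0.21 in experiment 2. Gna13-c went the other way, with 207.1 and 205.3 in Cyc against 125.0 and 178.3 in Wt. Its log2 fold change was 0.42 with a standard error of 0.27 (limma, unadjusted p = 0.176). The brightest probe set, Gna13-d, had 730.2 and 1068.3 in Cyc against 945.6 and 1196.7 in Wt, and its pools overlapped. The pools also overlapped at Gna13-a (304.7 and 476.8 in Cyc, 498.7 and 394.3 in Wt), Gna13-e (103.8 and 231.9 in Cyc, 193.7 and 229.0 in Wt) and Gna13-g (185.7 and 411.4 in Cyc, 241.0 and 442.7 in Wt). The log2 fold changes of these 4 lay between -0.40 and -0.21. Gna13-f was not tested, with 47.1 and 54.6 in Cyc against 18.4 and 45.6 in Wt.

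Gnas encodes Gαs, which couples β-adrenergic receptors to adenylyl cyclase. Its probe set Gnas-d had 7617.4 and 8159.4 in Cyc against 8656.4 and 8632.7 in Wt. Both Cyc pools lay below both Wt pools, but the log2 fold change was only -0.13, with a 95% interval from -0.72 to 0.45. Gnas-c had 88.1 and 115.4 in Cyc against 143.0 and 155.9 in Wt, and the Cyc pools again lay below the Wt pools. Its log2 fold change was -0.50 with a standard error of 0.25 (limma, unadjusted p = 0.105), with differences of -0.61 in experiment 1 and -0.39 in experiment 2. In the blocked limma fit its unadjusted p was 0.0465 and its adjusted p 0.708. This did not reach a 2-fold change. Gnas-e differed more between the experiments than between the genotypes, with 55.7 and 181.9 in Cyc against 71.5 and 198.5 in Wt. Its Cyc pool was the lower one in each, with differences of -0.29 in experiment 1 and -0.12 in experiment 2. Gnas-a and Gnas-b did not exceed 4.0. The Gnas locus gives rise to several transcripts from alternative first exons, and 4 RefSeq start sites were listed for it in the promoter table.

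The Gi class inhibits adenylyl cyclase and releases the βγ dimer. Of its 7 probe sets 6 were tested, and 0 of these passed the thresholds in either direction by limma, with 0 at an unadjusted p under 0.05. The probe sets of Gnai2 moved in opposite directions. Gnai2-b had 4940.3 and 4828.8 in Cyc against 4001.0 and 4450.8 in Wt, with both Cyc pools above both Wt pools and a log2 fold change of 0.21 (95% interval from -0.38 to 0.80). Gnai2-a had 3341.2 and 2188.9 in Cyc against 3618.7 and 2943.5 in Wt, with overlapping pools and a log2 fold change of -0.27 (from -1.09 to 0.55). Neither passed the thresholds, and both intervals included 0.

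Gnai3 was read by Gnai3-a at 1508.8 and 2038.6 in Cyc against 1598.0 and 2211.2 in Wt, and by Gnai3-b at 338.6 and 414.2 in Cyc against 392.8 and 433.3 in Wt. In both probe sets each Cyc pool lay below the Wt pool of its own experiment, with log2 fold changes of -0.10 and -0.13. Gnai1 had 295.3 and 409.6 in Cyc against 312.1 and 333.7 in Wt at Gnai1-c, and 94.4 and 133.2 in Cyc against 112.4 and 122.7 in Wt at Gnai1-b. Their log2 fold changes were 0.10 and -0.06, and the Wt pools lay between the Cyc pools in both. Gnai1-a was not tested, with 42.6 and 27.5 in Cyc against 58.4 and 44.5 in Wt.

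**Figure D3:**
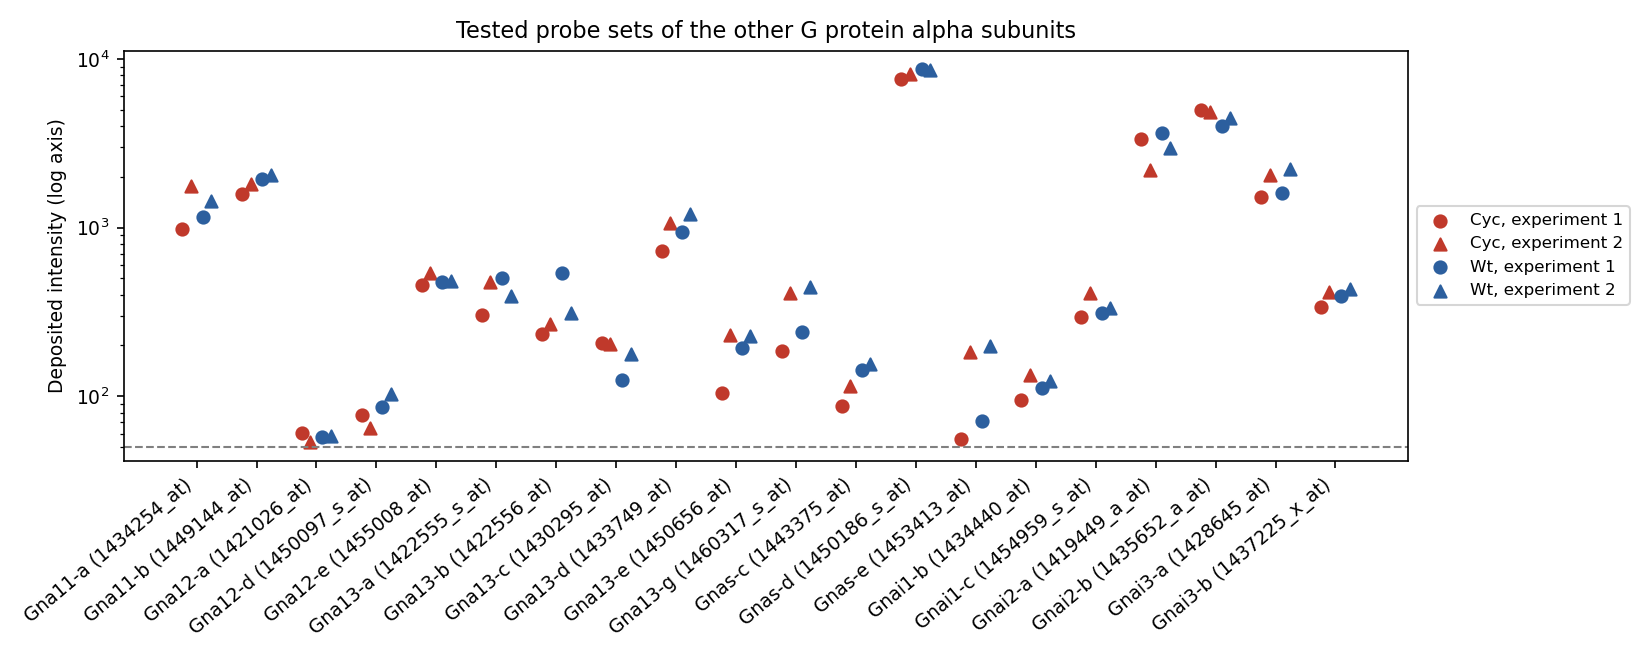
Deposited intensity (vertical axis, log scale) of the tested probe sets of the other α subunits (horizontal axis, grouped by gene) in the 2 Cyc and the 2 Wt pools, 1 point per pool (experiment 1 as circles, experiment 2 as triangles). At each probe set the group means differ by less than 2-fold, a dashed line marks 50, and heights of different probe sets are not comparable.

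Set side by side, the classes had median log2 fold changes of -0.25 over 9 tested probe sets for the Gq class, -0.23 over 9 for the G12 class, -0.20 over 3 for Gs and -0.08 over 6 for the Gi class, beside -0.02 over all tested probe sets. Probe sets of 1 gene share their transcripts and are not replicates. Of the 27, 3 had both Cyc values above both Wt values and 5 had both below, while the shares over all tested probe sets were 15.1% and 8.23%. Within the experiments, Cyc was lower than Wt in 23 of 27 in experiment 1 and in 16 of 27 in experiment 2, beside 61.8% and 41.2% of all tested probe sets. In both experiments Cyc was lower in 15 and higher in 3, beside 29.1% and 26.1%. The members without Gnaq-f had a median difference of -0.30 in experiment 1 and of -0.07 in experiment 2. Against the median of all tested probe sets this was -0.19 in experiment 1 and -0.13 in experiment 2.

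The transgene promoter is a cardiomyocyte promoter, so cardiomyocyte markers were read beside Gnaq. Their summed intensity was 5975.8 and 5874.6 in the Cyc pools and 6513.2 and 5226.2 in the Wt pools, and 11 and 13 of the 15 markers reached 50 in the Cyc pools, against 13 and 12 in the Wt pools. The sums overlapped. A further sum left out the 2 brightest markers, Atp2a2 and Nppa, of which Nppa was higher in Cyc cells. It was 2481.4 and 2172.4 in the Cyc pools and 4046.3 and 2572.2 in the Wt pools. Both Cyc pools lay below both Wt pools there, with 2481.4 only narrowly under 2572.2. As these markers were left out after their values were seen, no conclusion is drawn from this order. Myh6 itself had 589.8 and 183.8 in Cyc against 480.4 and 227.0 in Wt, with a log2 fold change of 0.00 and a standard error of 0.66. Each marker was represented by its brightest probe set, and the median log2 fold change over the 13 tested was -0.38. Of these, 1 was higher in Cyc cells, namely Nppa, the atrial natriuretic peptide gene and a marker of cardiac stress. Another 2 were lower, namely Myl2 and Mb, which encode ventricular myosin light chain and myoglobin. The shares over all tested probe sets were 0.735% higher and 0.116% lower. Myl3, another myosin light chain, was lower at another of its probe sets alone. Both Cyc values lay below both Wt values in 5 of the 13, above in 1 and overlapped in 7. Over all tested probe sets 8.23% lay below and 15.1% above. The markers Myh7 and Ryr2 were not tested, as fewer than 2 arrays read them at 50 or above. Myh7 had 35.2 and 61.4 in Cyc against -0.4 and -6.8 in Wt. Its signal was thus near background in Wt and higher in Cyc in each experiment, and only the Cyc pool of experiment 2 reached 50. Ryr2 had 31.4 and 11.8 in Cyc against 14.9 and 7.8 in Wt, and its values overlapped. The part of cardiomyocyte RNA in the Gnaq signal was not tested.

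The probe sets most like Gnaq-f over the 4 arrays, by Pearson correlation of log2 values, belonged to Egr2 (r = 0.9999), an immediate early transcription factor, Ubox5 (r = 0.9999), a ubiquitin ligase, Eln (r = 0.9994), which encodes elastin, Omd (r = 0.9992), a matrix proteoglycan, and Phpt1 (r = 0.9991), a phosphohistidine phosphatase. Egr2 had 665.7 and 608.1 in Cyc against 306.1 and 259.1 in Wt, and Eln had 75.1 and 56.1 in Cyc against 4.9 and -16.0 in Wt. In both, the Cyc pools lay above the Wt pools, which follows from the choice by correlation with Gnaq-f. Eln, like Gnaq-f, lay under 50 in both Wt pools. Correlation does not weigh the size of a change. The log2 fold changes were 1.13 for Egr2, 0.94 for Ubox5, 2.15 for Eln, 1.02 for Omd and 0.50 for Phpt1, against 4.46 for Gnaq-f. A correlation of 0.95 was reached by 437 of 17923 other probe sets with 1 gene symbol, or 2.44%. Fibroblast markers summed to 40791.5 and 43515.0 in the Cyc pools and to 40216.1 and 25344.8 in the Wt pools. Of the 8, Col1a1 and Postn were higher in Cyc cells at their brightest probe sets, beside 0.735% of all tested probe sets. Col1a2 was higher at another of its probe sets alone. Their part in these values was not tested.

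The wider pathway was described by 11 lists with 123 genes, each represented by its brightest probe set. Of the 112 genes with a probe set 68 were tested, and 0 passed the thresholds in either direction by limma, with or without the experiment as a block. An unadjusted p under 0.05 was found for 2 of the 68 in the unblocked fit, beside 1.99% of all tested probe sets, and for 6 in the blocked fit, beside 6.98%. The other α subunits (Gnao1, Gnaz and the α subunits of sensory cells) were tested in 0 of 5 genes with a probe set, as they remained under 50.

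The β and γ subunits, which form the dimer released from the α subunit, had median log2 fold changes of 0.14 over 4 genes and of -0.04 over 5. Gnb1 had 2573.6 and 2560.7 in Cyc against 2491.7 and 2456.7 in Wt, and Gnb2 had 2577.5 and 2815.1 in Cyc against 2532.8 and 3258.8 in Wt. Their log2 fold changes were 0.05 and -0.09. Gng11 had 8601.3 and 6275.2 in Cyc against 7683.2 and 7420.8 in Wt, and Gng10 had 1463.5 and 1316.1 in Cyc against 1220.8 and 1108.9 in Wt. Gng8, singled out after its values were seen, had one of the 2 unadjusted p-values under 0.05, with 72.1 and 63.8 in Cyc against 30.2 and 30.4 in Wt (limma, unadjusted p = 0.0142, adjusted p = 1). It passed the filter on dim probe sets through its Cyc pools alone, and both Wt pools lay under 50.

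None of the tested Gq class effectors passed the thresholds. Plcb4, a phospholipase Cβ, had 1903.3 and 3538.6 in Cyc against 2506.0 and 3588.2 in Wt, with a log2 fold change of -0.21 and a standard error of 0.40. Trio, a guanine nucleotide exchange factor, had 1069.1 and 1773.2 in Cyc against 1547.2 and 1892.6 in Wt, and in both genes the Cyc pool of experiment 1 was lowest, as at most Gnaq probe sets. The median over 6 tested effectors was -0.13. Further downstream, the calcineurin subunits Ppp3ca (621.8 and 1263.6 in Cyc, 837.5 and 1068.0 in Wt) and Ppp3cb (741.2 and 889.3 in Cyc, 763.5 and 963.7 in Wt) overlapped, with a list median of -0.09 over 11 genes. Among the G12 class effectors Arhgef12, a guanine nucleotide exchange factor, had 1260.3 and 2996.5 in Cyc against 2392.1 and 2912.2 in Wt, and the list median was -0.15 over 5 genes.

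Adenylyl cyclases, the shared effectors of Gs and Gi, had a median of -0.01 over 8 genes. Adcy3 had 816.3 and 1580.9 in Cyc against 1678.8 and 1737.9 in Wt, below Wt in both pools, with a log2 fold change of -0.58 and a standard error of 0.38. Adcy6 had 514.8 and 1019.0 in Cyc against 546.0 and 781.5 in Wt, and overlapped. The RGS proteins, which speed the hydrolysis of GTP by α subunits, had a median of 0.13 over 10 genes. Rgs5, also a pericyte gene, had 6110.4 and 9357.9 in Cyc against 5695.1 and 7176.5 in Wt, and Rgs3 had 935.3 and 1595.1 in Cyc against 1153.4 and 1364.5 in Wt. Rgs2, which acts on Gαq, was singled out after its values were seen: it had 642.8 and 437.6 in Cyc against 308.3 and 283.6 in Wt, with a log2 fold change of 0.81 and a standard error of 0.28 (limma, unadjusted p = 0.0386, adjusted p = 1), which is under 2-fold.

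Receptors that couple to Gq had a median of 0.21 over 11 genes. F2r, a thrombin receptor, had 7437.0 and 7791.8 in Cyc against 7090.9 and 7018.5 in Wt, and Ednrb, an endothelin receptor, had 2890.6 and 3489.7 in Cyc against 1900.9 and 2602.0 in Wt. In each gene both Cyc values exceeded both Wt values, but the log2 fold changes of 0.11 and 0.51 had 95% intervals that included 0 in the unblocked fit. In the blocked limma fit Ednrb had an unadjusted p of 0.0415 and an adjusted p of 0.704. It was 1 of 6 pathway genes with an unadjusted p under 0.05 there. The receptor kinases, which switch receptors off, had a median of 0.07 over 3 genes, with Grk6 at 904.9 and 985.4 in Cyc against 843.7 and 955.9 in Wt and Grk5 at 757.9 and 597.7 in Cyc against 634.8 and 719.5 in Wt. Chaperones and GoLoco proteins of α subunits had a median of 0.19 over 5 genes. Ric8a, the chaperone of Gαq and Gαi, had 691.8 and 846.5 in Cyc against 679.4 and 656.0 in Wt, and Ric8b, the chaperone of Gαs, had 258.0 and 330.1 in Cyc against 267.9 and 503.2 in Wt.

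**Figure D4:**
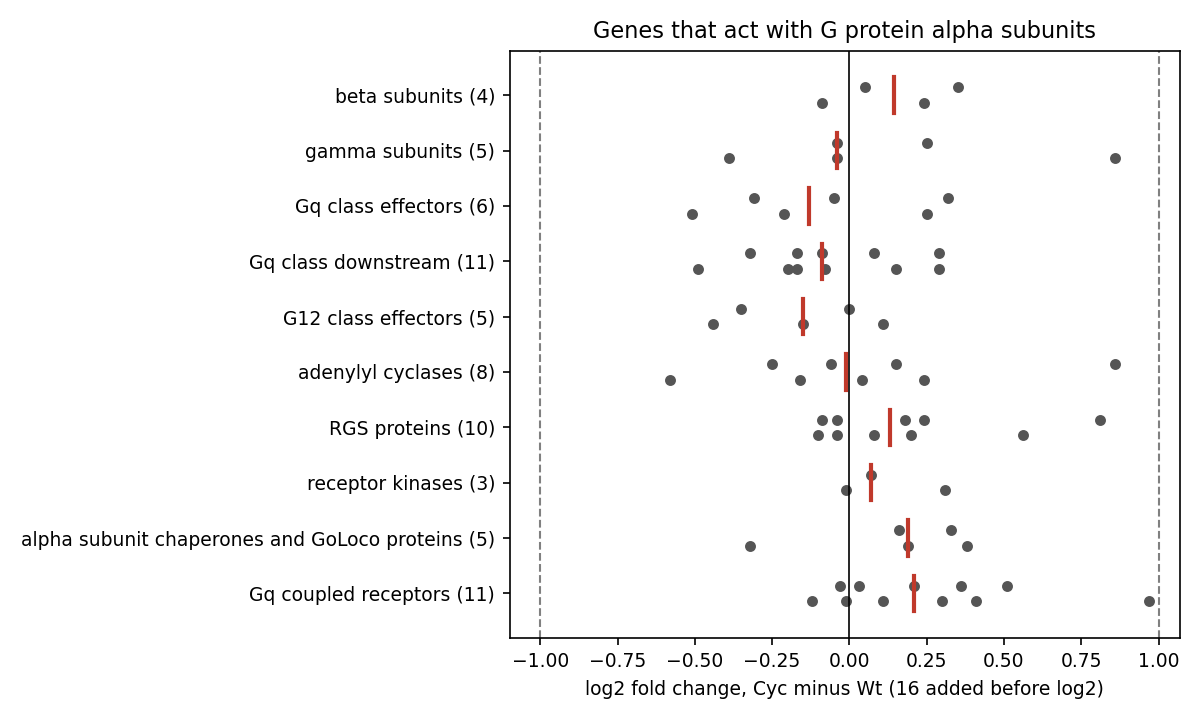
Log2 fold change, Cyc minus Wt, of each of the 68 tested pathway genes (horizontal axis), 1 point per gene at its brightest probe set, by list (vertical axis), with the median of each list as a bar and dashed lines at a 2-fold change. The list medians lie between -0.15 and 0.21, and every gene lies inside the dashed lines.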

How the data were processed

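Gene expression was measured in 4 pools of Sca-1 cells, 2 Cyc and 2 Wt, with 250 ng of RNA per array. The deposited table holds a linear normalized intensity for 45037 probe sets, which the authors made in Rosetta Resolver; its background correction is not given in the sources used here, and between 5784 and 7231 values per array lie below 0. Values below 0 were set to 0, 16 was added and log2 taken. Testing was by limma 3.58.1 (R 4.3.3, two-sided, Benjamini-Hochberg adjustment) of the 20680 probe sets that 2 or more arrays read at 50 or above. Thresholds were those of the study, 2-fold and an unadjusted p under 0.05, but its error model was not run.

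Probe sets were named by the array annotation, in which 34945 have 1 gene symbol and 932 several, and no member probe set has several. Named were all member probe sets, the 2 brightest genes of each pathway list, any that passed, and the 5 probe sets most like Gnaq-f. One gene that this rule covers is not reported here. Members and lists were chosen with earlier results of these data known.

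Same-numbered pools were taken to come from 1 experiment, from the labels read with the methods, and the labels do not say so outright. The correlation of their deviations from the group means was 0.447. The experiment as a replicate block was an alternative, as were other pseudocounts, filters, normalizations and variance models, and leaving out each pool. Apart from fits that leave out a pool, p-values rest on 2 pools per group, each of several hearts. The unblocked procedure was tested on simulated data that held no experiment effect. The blocked fit was not simulated. Promoters are RefSeq sequences of GRCm38.p6, credited to that build only.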

Additional observations from a re-analysis of the deposited data

How the results depend on the processing

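In all 14 alternatives for the members, 1 probe set passed as higher in Cyc, 0 as lower, and 1 of the Gnaq probe sets passed; with the 2 probe sets named by the study alone, added after seeing the data, this was also 1. The log2 fold change of Gnaq-f, 4.46, was 5.77 with a pseudocount of 1, 3.37 with 50 and 3.99 to 4.93 when each pool was left out in turn. Leaving out a pool leaves 1 in its group, which is then assumed to vary like the other group. The adjusted p of Gnaq-f by limma was 0.0375 with the replicate block and 0.00681 with the block and quantile normalization (added after seeing the data). Without the block it was 0.264 with quantile normalization, 0.0998 with median scaling and 0.973 without a filter. It was higher still with either other pseudocount, the filter at 100, a trend in the variance prior or no moderated variances. Without moderated variances the linear-model t-test gave an unadjusted p of 0.0146. Under the replicate block no other member or pathway call changed. The difference between Gnaq-f and the other Gnaq probe sets, 4.78, was 6.10 with a pseudocount of 1, 3.66 with 50 and 4.04 to 5.52 without each pool.

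Member probe sets higher in Cyc in both experiments numbered 6 without a filter and 5 with quantile normalization or median scaling, against 3. Over all tested probe sets, 24 were lower in Cyc, and 46 with a pseudocount of 1, 37 without a filter, 37 with median scaling, 47 with the replicate block, 49 with the block and quantile normalization, 7 without moderated variances and 29 to 1050 without each pool, the highest without the Cyc pool of experiment 2. The 152 higher in Cyc became 93 with a pseudocount of 50, 47 without moderated variances and 117 to 581 without each pool, the highest without the Cyc pool of experiment 1. Of the pathway genes 0 to 3 passed as higher and 0 to 2 as lower without each pool: Adcy7, Rgs4 and P2ry6 higher and Rgs16 lower without the Cyc pool of experiment 1, Rgs2 and Rgs16 higher and Arhgef12 and Adcy3 lower without that of experiment 2, and P2ry6, under 50 in both Wt pools, higher without the Wt pool of experiment 1.

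Of 376 alternative fold changes of member probe sets 24 turned sign. Gna12-a was 0.01 with median scaling. Without each pool in turn, log2 fold changes ran from -0.94 to 0.15 for Gnaq-a, -0.74 to 0.21 for Gnaq-b, -0.97 to 0.02 for Gnaq-c, -0.88 to 0.16 for Gnaq-d, -0.51 to 0.15 for Gnaq-e and -0.71 to 0.24 for Gnaq-g. They ran from -0.39 to 0.45 for Gna11-a, -0.08 to 0.06 for Gna12-a, -0.07 to 0.16 for Gna12-e, -0.52 to 0.10 for Gna13-a, -0.53 to 0.01 for Gna13-d, -0.92 to 0.13 for Gna13-e and -0.77 to 0.32 for Gna13-g. For the others they ran from -0.93 to 0.53 for Gnas-e, -0.27 to 0.16 for Gnai1-b, -0.12 to 0.33 for Gnai1-c, -0.57 to 0.03 for Gnai2-a, -0.33 to 0.13 for Gnai3-a and -0.27 to 0.01 for Gnai3-b. The cause was not tested. The number of arrays, 2 per group, limits the precision.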
